A study of Mus musculus with 32 samples.

Results

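CD4+ T cells activated beside macrophages that had been pretreated with IL-4 and IL-10 were set directly against CD4+ T cells activated in medium short of leucine, with 3 arrays in each group at 48 h. The 6 arrays were chosen by their titles alone, out of 23 arrays at that time and 32 in the whole series. In the pretreated group, peritoneal macrophages were kept for 12 to 16 h in IL-4 and IL-10 at 10 ng/mL each, then washed and given new medium before the T cells and their OVA peptide. In the low leucine group the macrophages carried no cytokine label, the same antigen was given, and the medium held 1% of the leucine of normal RPMI. The groups therefore differ both in the state of the macrophages and in the medium. The labels do not say whether the low leucine macrophages were also kept overnight, without cytokines, before the T cells. Both groups had T cells from cervical and axial nodes of Balb/c mice with the DO11.10 transgene, a receptor for an OVA peptide, with macrophages drawn 3 days after thioglycollate, RPMI-SILAC based medium, and a sort on viable single CD4+ cells. Ages are not given, and nothing in the labels says that replicates came from separate animals or cultures. The p-values therefore measure only the spread between arrays within groups, estimated over all 23 arrays at 48 h. Levels are also given, as background and without a test, for antigen groups in 1% arginine, in 1% lysine and in full medium (3 arrays each), and for 8 arrays without antigen in the same low media.

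IL-4 and IL-10 drive macrophages into an alternatively activated state that makes arginase-1, an enzyme that breaks arginine down to ornithine and urea and can drain arginine from T cells nearby. A cell short of an amino acid collects uncharged tRNA, which switches on the kinase GCN2. GCN2 raises translation of the transcription factor ATF4, and ATF4 turns on genes for amino acid synthesis and uptake. Leucine is also sensed by mTORC1, which controls ribosome production, lipid synthesis and growth. The direct comparison addresses where T cells beside arginase-producing macrophages look like T cells short of an essential amino acid, and where they do not.

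All values below are log2 intensities, so a difference of 1 is a 2-fold change, and a gene is called when its adjusted p is below 0.05 in limma's test over 22180 genes. Every pretreated array correlated with the other pretreated arrays at 0.978 to 0.982 over all genes, and the low leucine arrays correlated with each other at 0.987 to 0.990. Between the groups the correlations ran between 0.968 and 0.982, and the highest of them all belonged to pretreated replicate 3. The submitters numbered the pretreated arrays 34 to 40 and the full-medium arrays 33 to 39, while every array in low medium is numbered 18 or less. Treatment and any difference between these number ranges cannot be told apart here.

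In all, 1314 of 22180 genes were called (5.92%), 544 of them higher with pretreated macrophages (2.45%) and 770 lower (3.47%). A called difference of at least 2-fold was found for 288 genes (1.3%). The 3 arrays of one group lay entirely above or below those of the other for 4937 genes, and for 1290 of the 1314 called genes. When the arrays were quantile normalized again, 1170 genes were called and the split turned to 650 higher and 520 lower. Of 48 gene lists, the largest shares called in 1 direction were those of mitosis genes (76.7% lower), nucleotide synthesis genes (53.3% lower), naive and homing genes (52.9% higher) and alternatively activated macrophage markers (47.1% higher). The plot of called members by list shows these shares beside those of all genes.

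**Figure D1:**
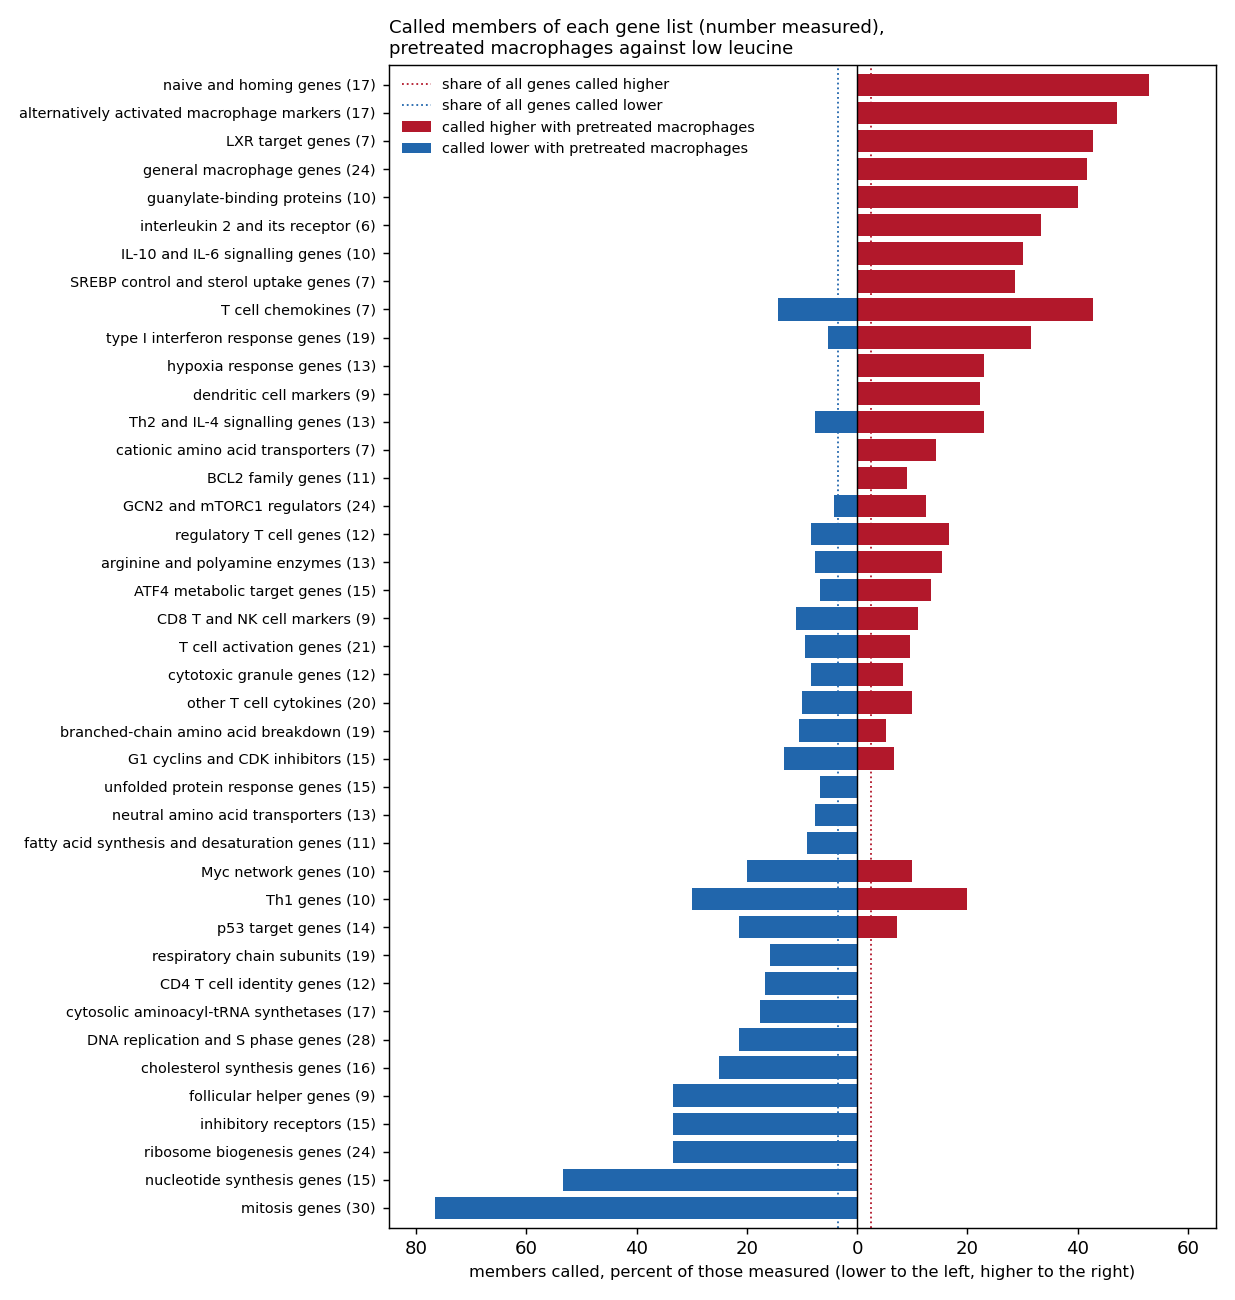
Percent of the measured members of each gene list that were called higher (right, red) or lower (left, blue) with pretreated macrophages against low leucine, with the number measured in brackets. Dotted lines mark the shares over all genes, 2.45% higher and 3.47% lower. Lists with no called member are left out. Mitosis genes reach 76.7% on the lower side and naive and homing genes 52.9% on the higher side.

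Macrophage genes gave the widest gap. Chil3, which encodes the chitinase-like protein Ym1 of alternatively activated mouse macrophages, was at 10.03, 10.42 and 9.59 in the pretreated arrays, against 4.82, 5.67 and 5.34 in low leucine. The groups were far apart, and the full-medium arrays lay with low leucine at 4.71 to 5.30. Chil3 was thus higher by 4.74 ± 0.25 (SE), a 26.7-fold difference (adjusted p = 6.3e-11). Arg1, arginase-1 itself, was at 9.46, 10.29 and 9.21 with pretreated macrophages, against 6.16, 6.04 and 6.46 in low leucine. Again no array overlapped, but here full medium stood in between at 8.19, 7.84 and 7.41. The Arg1 difference was 3.43 ± 0.24, or 10.8-fold (adjusted p = 1.19e-08). Retnla, the secreted protein Fizz1, was at 7.02, 6.97 and 6.26 in pretreated arrays, against 3.35, 3.84 and 3.27 in low leucine. It was higher by 3.26 ± 0.26 (adjusted p = 7.87e-08), and full medium, at 3.05 to 3.37, was as low as low leucine.

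Of 17 alternatively activated macrophage markers, 8 were called higher and none lower, with a median difference of 0.43, against -0.01 over all genes. Mrc1, the mannose receptor, was higher by 1.46 ± 0.22 and Ccl22, a chemokine that attracts CCR4-bearing T cells, by 2.18 ± 0.31 (adjusted p = 0.000209 and 0.000138). Others did not pass: Clec10a differed by 0.08 and Cd163 by -0.03, and both lay below 5 in each group. Without pretreated replicate 2, 5 of the 17 were called. For Ccl22, as for Arg1, the full-medium arrays too lay above every array in low medium.

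General macrophage genes moved in the same direction: 10 of 24 were called higher, none lower, with a median of 0.71. The lipase gene Lpl was higher by 2.12 ± 0.32, the integrin gene Itgam (CD11b) by 1.72 ± 0.23, lysozyme Lyz2 by 1.67 ± 0.26 and the scavenger receptor gene Msr1 by 1.63 ± 0.25. The elastase gene Mmp12, one of the 12 largest rises and not in this list, was higher by 2.55 ± 0.24. For Lyz2 the arrays were at 11.31, 11.40 and 10.79 with pretreated macrophages, against 10.09, 9.07 and 9.32 in low leucine. Macrophage transcripts were thus measured in both groups of sorted cells, at higher levels in the pretreated one. The mean level of the 24 genes was 7.03, 7.25 and 6.79 in the pretreated arrays, against 6.56, 6.08 and 6.18 in low leucine and 6.46 to 6.59 in full medium. Arrays without antigen were near the pretreated level, averaging 7.10 in low arginine, 7.13 in low leucine and 6.96 in low lysine. C1qa, Marco, Timd4 and Spi1 were not called, with differences of 0.09, -0.05, 0.00 and 0.06. Without single arrays the count ran from 6 (without pretreated replicate 2) to 13 (without pretreated replicate 3 or low leucine replicate 1). In these bulk samples, more cells of a type and more RNA per cell cannot be told apart.

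None of 13 B cell markers, 16 granulocyte and mast cell markers, 18 mesothelial and stromal markers or 6 MHC class II presentation genes was called in either direction. The mean level of the B cell markers was 5.62 ± 0.01 in pretreated arrays and 5.67 ± 0.06 in low leucine (SD, n = 3 each). Of 9 dendritic cell markers, 2 were higher and none lower (22.2% of the list, median 0.15): the integrin gene Itgax (CD11c) by 1.03 ± 0.26 (adjusted p = 0.0192) and Ccr7, which T cells also express, by 1.03 ± 0.17 (adjusted p = 0.000546). The call of Itgax ended without any one of pretreated replicates 1 and 2 and low leucine replicates 2 and 3 (adjusted p between 0.0741 and 0.113). Flt3 and Zbtb46 were not called, with differences of -0.12 and 0.14. Of 9 markers of CD8 T and NK cells, 1 was higher, Eomes, described with the Th1 genes, and 1 lower, Cd8a by -0.65 ± 0.18 (adjusted p = 0.0362). Cd8a lost its call without any one of pretreated replicates 1 and 2 and low leucine replicates 2 and 3 (adjusted p between 0.101 and 0.169). Among CD4 T cell identity genes, 2 of 12 were lower and none higher: Cd5 by -0.83 ± 0.14 and Cd28 by -0.68 ± 0.13. Cd3e, a chain of the T cell receptor complex, differed by -0.27 ± 0.13 (adjusted p = 0.285) and Cd4 by -0.20 ± 0.14 (adjusted p = 0.585). Cd3e, which does not set CD4+ cells apart from other T cells, was at 11.27 to 11.58 in pretreated arrays and 11.60 to 11.82 in low leucine.

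**Figure D2:**
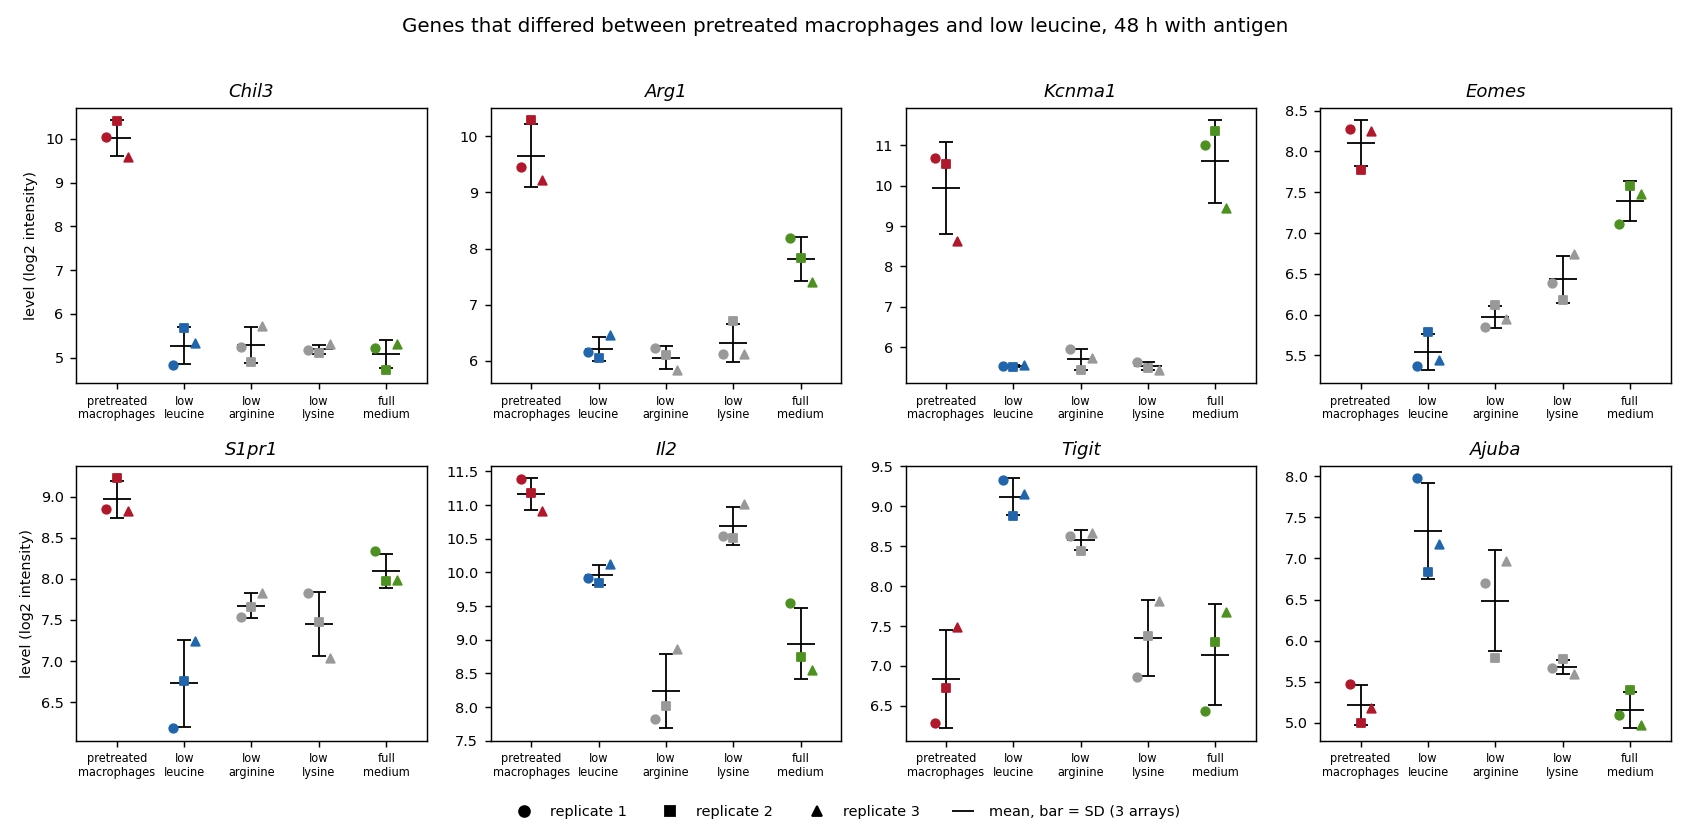
Log2 intensity of 8 genes in each array with antigen at 48 h, by group; symbols mark replicates, and the line and bar give the mean and SD of 3 arrays. Chil3 is high in pretreated arrays alone, and Kcnma1 is high in pretreated and full-medium arrays. Among these groups with antigen, Tigit and Ajuba have their highest mean in low leucine.

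Most of the amino acid shortage genes were not called. Of 15 genes of ATF4 transcription and feedback, none was called in either direction, and the median difference was -0.01. Of 15 ATF4 metabolic target genes, 2 were higher and 1 lower, with a median of -0.07. Both medians turn to 0.01 after quantile normalization. Nupr1, a stress-induced chromatin protein, was at 9.13, 9.15 and 9.06 with pretreated macrophages, against 9.07, 9.11 and 8.92 in low leucine. The arrays overlapped, and all 6 lay above the 6.72, 7.26 and 6.90 of full medium. The difference of 0.08 had a 95% interval of -0.29 to 0.45 (adjusted p = 0.915). Asns, asparagine synthetase, was at 9.87, 9.84 and 9.94 in pretreated arrays, against 10.20, 10.00 and 10.08 in low leucine and 9.04, 9.35 and 9.20 in full medium. Its 3 pretreated arrays lay just below all low leucine arrays, by -0.21 with an interval of -0.67 to 0.26 (adjusted p = 0.757).

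Amino acid carriers induced by shortage were high in both groups. Slc7a3, a carrier of arginine and lysine, was at 8.02, 8.16 and 8.23 with pretreated macrophages, against 8.48, 8.36 and 8.38 in low leucine and 6.12 to 6.48 in full medium. The interval of its difference was -0.60 to 0.07 (adjusted p = 0.454). Slc7a5, which carries leucine into the cell, differed by 0.26, with an interval of -0.13 to 0.65, and its partner chain Slc3a2 by -0.06, with an interval of -0.34 to 0.21. Ddit3 (CHOP) and Trib3, both ATF4 targets linked to cell death and feedback, differed by -0.42 and -0.45 and were not called (adjusted p = 0.174 and 0.317). Cth, the last enzyme of cysteine synthesis, was at 9.06, 9.10 and 9.05 in pretreated arrays, against 8.73, 8.30 and 8.51 in low leucine and 6.45 to 6.83 in full medium. Its arrays did not overlap, yet the difference of 0.56 was not called (adjusted p = 0.326), with an interval from -0.03 to 1.15. The intervals still allow modest differences, and a missed threshold does not make the groups alike.

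Chac1 and Slc7a11, which act on glutathione from opposite sides, were the exceptions. Chac1 breaks glutathione down, and Slc7a11 brings in the cystine from which it is made. Chac1 was at 8.20, 8.52 and 8.78 with pretreated macrophages, against 7.48, 7.41 and 7.54 in low leucine and 6.73, 7.0 and 6.95 in full medium. All pretreated arrays were above all low leucine arrays, by 1.02 ± 0.15 (adjusted p = 0.000209). Slc7a11 was at 6.27, 6.50 and 5.77 in pretreated arrays, against 5.17, 5.38 and 5.47 in low leucine. It was higher by 0.85 ± 0.18 (adjusted p = 0.0073), a call that ended without pretreated replicate 2 (adjusted p = 0.0576). The part of macrophage RNA in the Chac1 and Slc7a11 differences was not tested. The one lower gene, Psat1 of serine synthesis, differed by -0.57 ± 0.15 (adjusted p = 0.0212), and its call ended without any one of pretreated replicates 1 and 2 and low leucine replicates 2 and 3 (adjusted p between 0.0628 and 0.102).

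Promoter stretches of 4 of these genes are shown because the motif is common to genes that were called and genes that were not. Sequences are from RefSeq, build GRCm38.p6, 5′ to 3′ on the gene's own strand, and capitals mark a match to TGATGNAA on either strand, the core of the C/EBP-ATF element through which ATF4 acts. In Chac1 and Slc7a11, the called pair, the matches are as follows.
Chac1, chr2:119351019-119351086, plus strand: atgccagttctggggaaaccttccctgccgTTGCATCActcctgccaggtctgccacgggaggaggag
Slc7a11, chr3:50443642-50443709, minus strand: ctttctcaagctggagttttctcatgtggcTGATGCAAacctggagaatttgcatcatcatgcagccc
Asns and Nupr1, not called, hold it too.
Asns, chr6:7693210-7693262, minus strand: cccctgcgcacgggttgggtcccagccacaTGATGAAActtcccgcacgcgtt
Nupr1, chr7:126625543-126625610, minus strand: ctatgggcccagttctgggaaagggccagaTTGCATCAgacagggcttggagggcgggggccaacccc
Among the 30 measured ATF4 genes of both lists, 27 had a promoter of 300 bases to search, and 9 of those genes held the motif in any promoter. Of all promoters, counted singly and not by gene, 1304 of 32851 held it (3.97%), so these shares are not in the same unit. A second copy on the other strand lies within the Slc7a11 stretch in lower case. A match is a description of the letters only.

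Other genes of amino acid handling showed single calls. Slc7a2, the arginine carrier of macrophages, was at 6.27, 6.15 and 6.21 in pretreated arrays, against 5.58, 5.17 and 5.09 in low leucine and 5.05 to 5.31 in full medium. It was the only called member of 7 cationic amino acid carriers, higher by 0.93 ± 0.17 (adjusted p = 0.0019). Among 24 GCN2 and mTORC1 regulators, 3 were higher and 1 lower. Rragd, a Rag GTPase that brings mTORC1 to the lysosome, was higher by 1.21 ± 0.25, and Sesn1, a sestrin that holds mTORC1 back, by 0.69 ± 0.15 (adjusted p = 0.0052 and 0.007). Of 19 genes of branched-chain amino acid breakdown, 1 was higher and 2 lower. Bckdhb, a subunit of the dehydrogenase that commits leucine to breakdown, was at 6.28, 6.74 and 6.78 with pretreated macrophages, against 7.42, 7.39 and 7.28 in low leucine, a difference of -0.76 ± 0.15 (adjusted p = 0.0042). Srm, which makes the polyamine spermidine from products of ornithine, was lower by -0.75 ± 0.15 (adjusted p = 0.0043).

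Enzymes that charge tRNA leaned to the low leucine side. All 17 cytosolic aminoacyl-tRNA synthetases had a difference below 0, with a median of -0.28, and 3 were called lower. Hars, for histidine, was at 8.56, 8.41 and 8.56 in pretreated arrays, against 9.21, 9.34 and 9.19 in low leucine. Kars, for lysine, was at 9.31, 9.19 and 9.45 in pretreated arrays, against 9.95, 10.01 and 9.84 in low leucine. The groups did not overlap for either, and the differences were -0.74 ± 0.17 and -0.62 ± 0.13 (adjusted p = 0.0089 and 0.0055). Lars, the leucine enzyme, differed by -0.06 ± 0.16 and Rars, the arginine enzyme, by -0.28 ± 0.18 (adjusted p = 0.932 and 0.502). After quantile normalization Lars turned to 0.04.

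**Figure D3:**
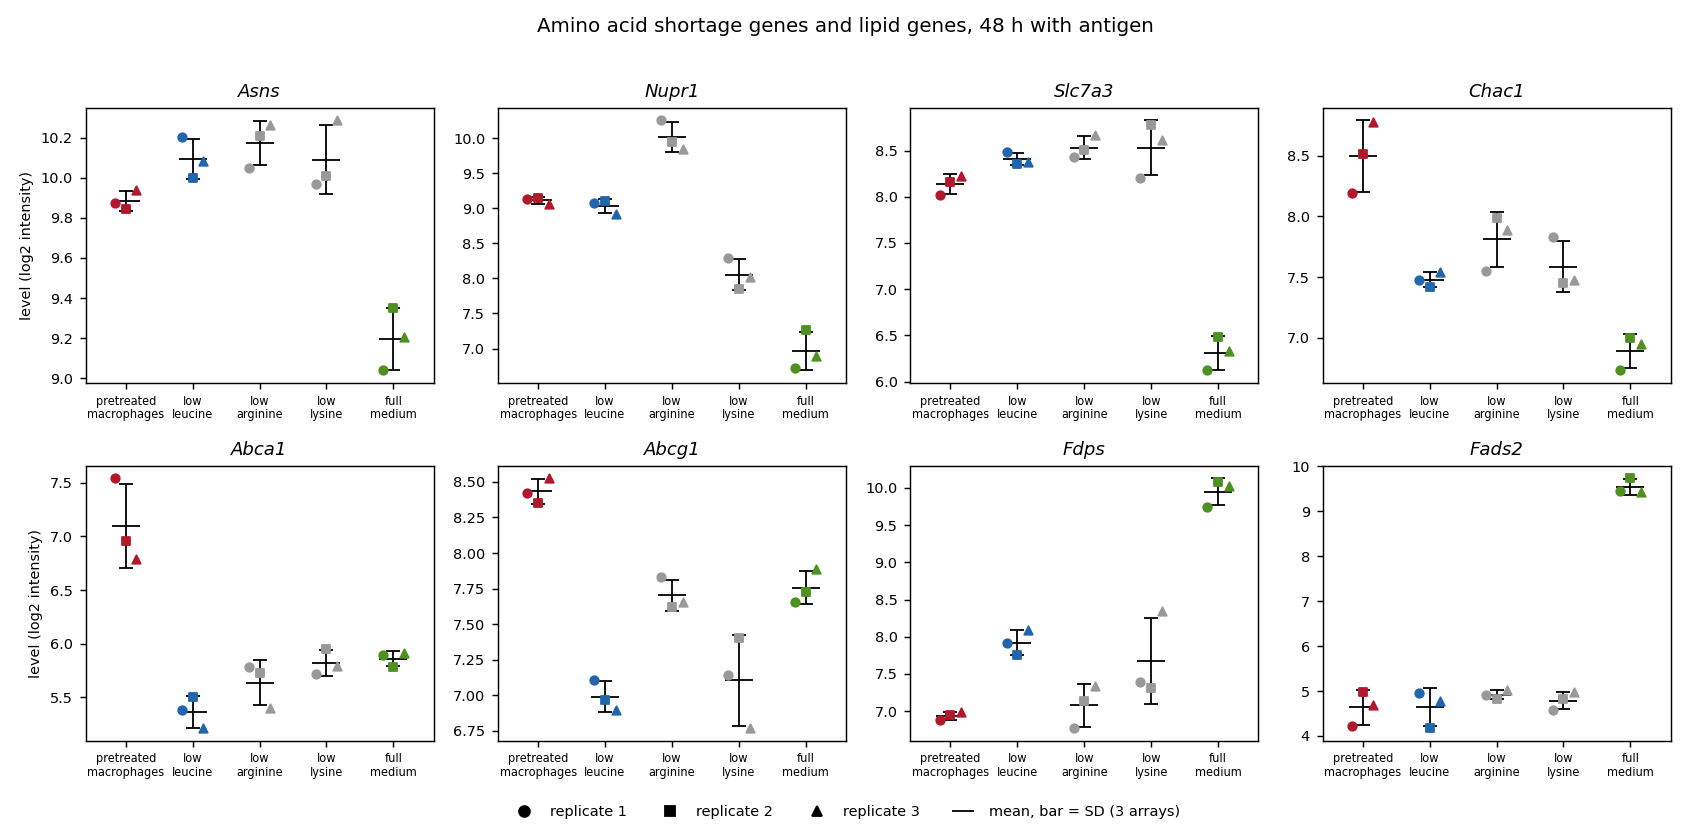
Log2 intensity of amino acid shortage genes (Asns, Nupr1, Slc7a3, Chac1) and lipid genes (Abca1, Abcg1, Fdps, Fads2) in each array with antigen at 48 h; symbols mark replicates, and the line and bar give the mean and SD of 3 arrays. Asns, Nupr1 and Slc7a3 lie at near levels in pretreated and low leucine arrays and below them in full medium, while Fads2 is near 9.5 in full medium and at 5 or less in pretreated and low leucine arrays.

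The list means of cholesterol synthesis and of fatty acid synthesis genes were below full medium in both groups. For fatty acid synthesis and desaturation genes the mean was 6.51, 6.74 and 6.87 in pretreated arrays, against 6.85, 6.75 and 6.97 in low leucine and 8.17, 8.34 and 8.30 in full medium. Of these 11 genes 1 was called lower and none higher between the 2 groups, with a median of -0.17. Fads2, a fatty acid desaturase under SREBP control, was at 4.22, 4.99 and 4.70 with pretreated macrophages, against 4.97, 4.17 and 4.79 in low leucine and 9.45, 9.74 and 9.43 in full medium. The difference between the 2 groups was 0.00, with an interval of -0.44 to 0.43 (adjusted p = 0.997). Fdps, which makes farnesyl diphosphate on the way to cholesterol, was at 6.89, 6.94 and 6.99 with pretreated macrophages, against 7.92, 7.75 and 8.09 in low leucine and 9.74 to 10.08 in full medium. Its groups did not overlap, and it was lower by -0.98 ± 0.22 (adjusted p = 0.0076). Cyp51, a demethylase later in the same pathway, was at 6.53, 6.50 and 6.61 in pretreated arrays, against 7.24, 7.26 and 7.33 in low leucine, lower by -0.73 ± 0.15 (adjusted p = 0.0054). Of 16 cholesterol synthesis genes, 4 were called lower and none higher, with a median of -0.34. The mean of the list was 6.67, 6.78 and 6.98 in pretreated arrays, against 7.21, 7.17 and 7.19 in low leucine and 8.36, 8.63 and 8.66 in full medium. The sterol element TCACNCCAC, searched on both strands of the promoters, was found in 1 of 13 of these genes (Hmgcs1). Counted by promoter and not by gene, it was in 1.24% of all promoters.

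Sterol export genes ran the other way. Abca1, which moves cholesterol out of the cell, was at 7.54, 6.96 and 6.79 with pretreated macrophages, against 5.38, 5.50 and 5.21 in low leucine and 5.78 to 5.91 in full medium. The pretreated arrays stood above both, and the difference from low leucine was 1.74 ± 0.17 (adjusted p = 1.09e-06). Abcg1, a second exporter, was at 8.42, 8.35 and 8.53 in pretreated arrays, against 7.11, 6.96 and 6.90 in low leucine, higher by 1.44 ± 0.14 (adjusted p = 6.12e-07). Mylip, a ligase that removes the LDL receptor, was higher by 1.19 ± 0.14 (adjusted p = 1.01e-05). These are 3 of 7 measured genes in a list of LXR, the sterol-sensing nuclear receptor, and its targets, and none was lower. Macrophages express Abca1 and Abcg1 as well, and the part of the macrophage RNA in these differences was not tested. In the 8 arrays without antigen Abca1 was at 5.7 to 6.5 and Abcg1 at 7.8 to 8.1.

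Genes of cell division were lower with pretreated macrophages. Of 30 mitosis genes, 23 were called lower and none higher, and all 30 differences were below 0, with a median of -1.43. Plk1, a kinase that drives entry into mitosis, was at 6.07, 6.37 and 7.57 in pretreated arrays, against 8.14, 8.28 and 8.24 in low leucine and 9.04 to 9.14 in full medium. No array overlapped, and Plk1 was lower by -1.55 ± 0.30 (adjusted p = 0.0027). Cdk1, the mitotic cyclin-dependent kinase, was at 6.67, 6.98 and 8.55 in pretreated arrays, against 9.06, 9.22 and 9.45 in low leucine, lower by -1.84 ± 0.44 (adjusted p = 0.0133). Pretreated replicate 3 was the highest of its group for both genes. Over the 30 genes the mean level was 6.54, 6.66 and 7.96 in pretreated arrays, against 8.26, 8.53 and 8.62 in low leucine and 8.90 to 9.04 in full medium. Low lysine arrays with antigen were as low as the pretreated ones, at 6.03 to 8.14, while low arginine arrays were at 8.70 to 8.88. Pretreated replicate 3, at 7.96, thus lay closer to low leucine than to its own group. Without it all 30 genes were called lower, with a median of -1.84, and without pretreated replicate 1 or 2 only 4 were called, with medians of -1.23 and -1.20. The Cdk1 call ended without pretreated replicate 1 or 2 or low leucine replicate 3 (adjusted p between 0.0631 and 0.0918), and the list's count was 16, 9 and 6 without low leucine replicates 1, 2 and 3.

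DNA replication followed with smaller differences. Of 28 S phase genes 6 were called lower, none higher, with a median of -0.58 and all differences below 0. Uhrf1, which carries DNA methylation through replication, was at 7.77, 7.96 and 8.61 with pretreated macrophages, against 9.36, 9.27 and 9.51 in low leucine, lower by -1.27 ± 0.21 (adjusted p = 0.000605). E2f8, a repressor made in S phase, was lower by -1.96 ± 0.37 (adjusted p = 0.0021). The list's count was 17 without pretreated replicate 3, 2 and 3 without pretreated replicates 1 and 2, and 4 without low leucine replicate 2 or 3.

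Nucleotide synthesis and ribosome production were lower as well. Of 15 nucleotide synthesis genes, 8 were called lower and none higher, with a median of -0.54. Gart, which carries out several steps of purine synthesis, was at 8.39, 7.97 and 8.28 in pretreated arrays, against 9.21, 9.46 and 8.95 in low leucine, lower by -0.99 ± 0.20 (adjusted p = 0.0047). Its count was 2 to 4 without any one array other than pretreated replicate 3, and 10 without that array. Of 24 ribosome biogenesis genes, 8 were called lower and none higher, with a median of -0.37. Nop2, a methylase of ribosomal RNA, was at 7.72, 8.09 and 8.05 in pretreated arrays, against 8.76, 8.81 and 8.78 in low leucine. Rrp12, a factor of ribosome export from the nucleus, was at 7.32, 6.87 and 6.87 in pretreated arrays, against 7.84, 7.82 and 7.84 in low leucine. The groups did not overlap, with differences of -0.83 ± 0.16 and -0.82 ± 0.16 (adjusted p = 0.0028 and 0.0024). Unlike the mitosis genes, the mean of this list was even across the pretreated arrays, at 8.73, 8.74 and 8.73, against 9.09, 9.12 and 9.09 in low leucine. Its count was 5 without pretreated replicate 1 or 2 or low leucine replicate 2 or 3. Myc itself, which drives both programmes, differed by 0.22 ± 0.11 (adjusted p = 0.323).

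**Figure D4:**
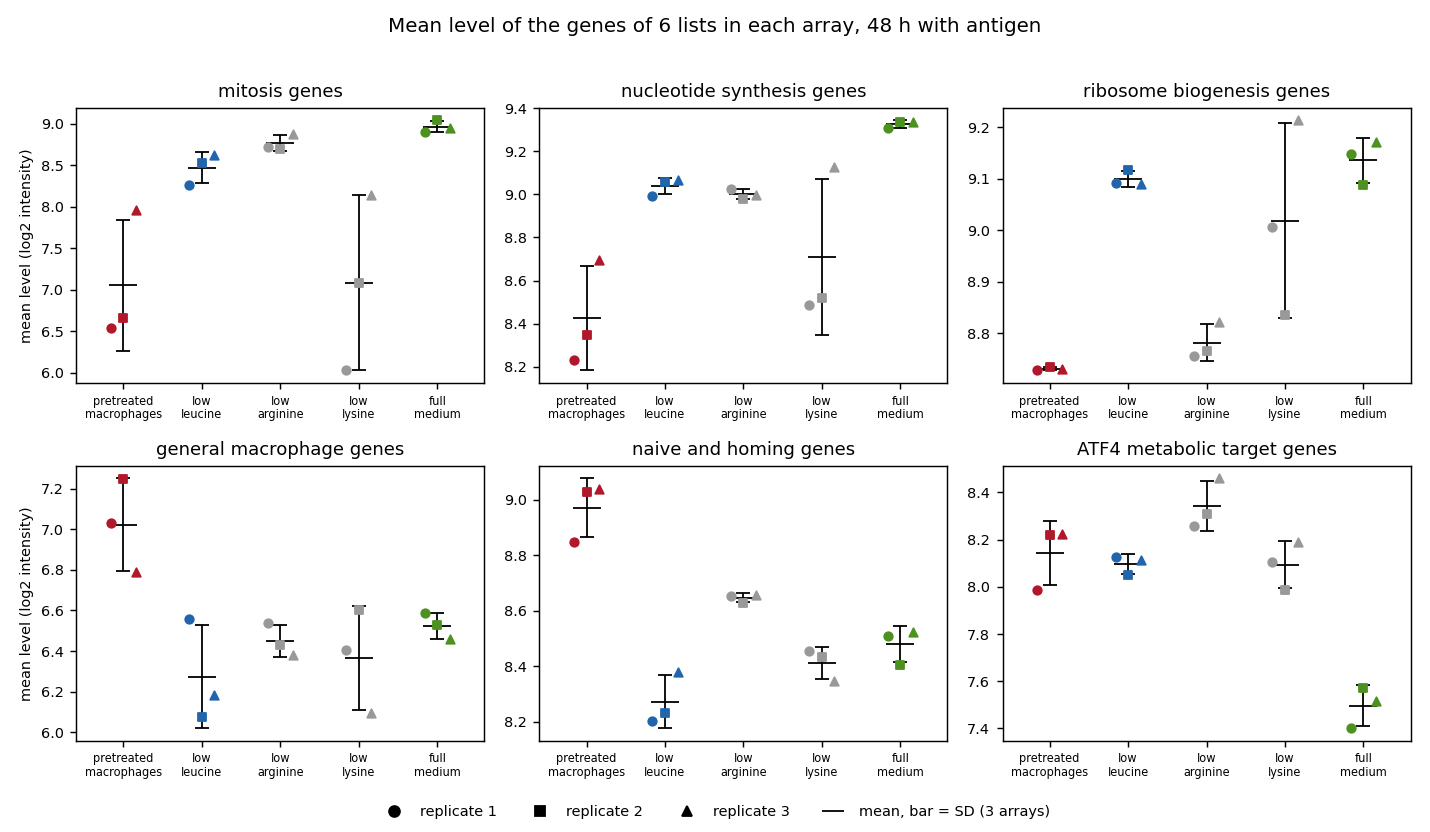
Mean log2 intensity over the members of 6 gene lists in each array with antigen at 48 h; symbols mark replicates, and the line and bar give the mean and SD of 3 arrays. In mitosis genes pretreated replicate 3, at 7.96, stands above the other 2 pretreated arrays, and in ribosome biogenesis genes the 3 pretreated arrays lie within 8.73 to 8.74, below all low leucine arrays.

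None of 14 glycolysis genes was called in either direction, with a median of 0.05. After quantile normalization 2 were called higher, likewise 2 without pretreated replicate 1, and 1 was called lower without pretreated replicate 3. Hk2, which traps glucose in the cell, differed by -0.06 ± 0.20 (adjusted p = 0.939). That sign turned to 0.03 after quantile normalization. Among 13 hypoxia response genes, 3 were higher and none lower: Adm by 1.21 ± 0.22, Bnip3 by 1.08 ± 0.25 and Vegfa by 0.89 ± 0.18. Vegfa, a secreted factor that promotes vessel growth, was at 9.45, 9.28 and 9.44 in pretreated arrays, against 8.57, 8.32 and 8.62 in low leucine and 8.27 to 8.37 in full medium (adjusted p = 0.005). Bnip3 was no longer called without low leucine replicate 2 (adjusted p = 0.088). Of 18 autophagy genes none was called, and of 15 genes of the unfolded protein response 1 was lower.

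Genes of naive and recirculating T cells were higher with pretreated macrophages. Of 17 such genes, 9 were called higher and none lower, with a median of 0.50, and 8 or 9 were called without any one array. S1pr1, the receptor that lets T cells leave lymph nodes, was at 8.85, 9.22 and 8.82 with pretreated macrophages, against 6.18, 6.76 and 7.24 in low leucine and 7.97 to 8.33 in full medium. The groups were far apart, and S1pr1 was higher by 2.24 ± 0.22 (adjusted p = 7.78e-07). Klf2, a transcription factor that sustains S1pr1, was at 7.68, 8.36 and 8.02 in pretreated arrays, against 7.12, 6.93 and 6.84 in low leucine, higher by 1.05 ± 0.19 (adjusted p = 0.0012). Il7r, the receptor for the survival cytokine IL-7, was at 9.12, 8.98 and 9.38 with pretreated macrophages, against 7.93, 7.67 and 8.08 in low leucine, higher by 1.27 ± 0.22. Klf3 was higher by 1.28 ± 0.14 and Ccr7, the lymph node homing receptor, by 1.03 ± 0.17. Without antigen, S1pr1 was at 10.5 to 11.2 and Il7r at 10.6 to 10.9, above all 6 arrays. St6gal1, a sialyltransferase singled out after its values were seen, was at 9.01, 9.22 and 9.57 in pretreated arrays, against 7.54, 7.06 and 7.53 in low leucine, higher by 1.89 ± 0.14 (adjusted p = 2.71e-08).

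Activation was on in both groups by the labels of antigen and by Il2ra, the high-affinity chain of the IL-2 receptor, at 11.28, 11.26 and 11.32 with pretreated macrophages and 11.39, 11.30 and 11.45 in low leucine. Without antigen Il2ra was at 5.5 to 6.2. The difference of -0.09 had an interval of -0.36 to 0.18 (adjusted p = 0.837). Il2 was at 11.39, 11.18 and 10.91 in pretreated arrays, against 9.92, 9.85 and 10.12 in low leucine and 9.54, 8.74 and 8.55 in full medium. Low lysine arrays with antigen, at 10.55, 10.51 and 11.02, overlapped the pretreated arrays, while low arginine arrays were at 7.83 to 8.86. All pretreated arrays were above the low leucine and full-medium arrays, and Il2 was higher than in low leucine by 1.20 ± 0.29 (adjusted p = 0.013). That call ended without pretreated replicate 1 or low leucine replicate 2 (adjusted p = 0.0653 and 0.0585). Of 21 T cell activation genes, 2 were higher and 2 lower, with a median of -0.04. Tnfsf11 (RANKL) was higher by 1.18 ± 0.17 and Irf4, a factor that scales with receptor signal, lower by -0.77 ± 0.13 (adjusted p = 0.000105 and 0.000693). Cd69, an early activation marker, differed by -0.07 ± 0.13 (adjusted p = 0.888).

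Of 15 inhibitory receptors, 5 were lower with pretreated macrophages, none was higher and 10 were not called, with a median of -0.09 and 5 differences above 0. Tigit, which competes with CD226 for its ligands, was at 6.28, 6.72 and 7.49 with pretreated macrophages, against 9.33, 8.87 and 9.15 in low leucine and 6.44, 7.31 and 7.67 in full medium. Pretreated arrays ran with full medium and near low lysine with antigen, at 6.86, 7.38 and 7.82, while low arginine was at 8.44 to 8.66. The difference of pretreated arrays from low leucine was -2.29 ± 0.33 (adjusted p = 0.000127). Lag3, which binds MHC class II, was at 9.0, 9.48 and 9.75 in pretreated arrays, against 10.47, 10.22 and 10.32 in low leucine, lower by -0.93 ± 0.20 (adjusted p = 0.0058). Pdcd1 (PD-1) differed by -0.74 ± 0.21 (adjusted p = 0.0316), and its call ended without any one of pretreated replicates 1 and 2 and low leucine replicates 1 and 3 (adjusted p between 0.0649 and 0.171). Ctla4 and Cd160 were not called, with differences of -0.35 and -0.04. After quantile normalization 2 of the 15 were higher and 3 lower, and without pretreated replicate 1 or low leucine replicate 1 or 3 the lower count was 3.

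Th1 genes split. Tbx21, which encodes T-bet, the defining factor of Th1 cells, was at 6.76, 7.18 and 7.04 with pretreated macrophages, against 8.53, 8.55 and 8.74 in low leucine. Every pretreated array was below every low leucine array, by -1.61 ± 0.28 (adjusted p = 0.000885). Il12rb2, the inducible chain of the IL-12 receptor, was at 7.41, 8.26 and 9.05 in pretreated arrays, against 10.02, 10.24 and 10.48 in low leucine, lower by -2.01 ± 0.43, and Il12rb1 was lower by -0.95 ± 0.17 (adjusted p = 0.0059 and 0.0013). Il18r1, a chain of the IL-18 receptor, and Stat4, which carries the IL-12 signal, were higher by 1.25 ± 0.15 and 0.78 ± 0.15 (adjusted p = 2.12e-05 and 0.0019). In all, 2 of 10 Th1 genes were higher and 3 lower, and the same counts were found without any one array. Eomes, a T-box relative of T-bet, ran against it, at 8.28, 7.78 and 8.25 in pretreated arrays, against 5.38, 5.79 and 5.45 in low leucine and 7.12, 7.58 and 7.48 in full medium. Eomes was higher by 2.56 ± 0.19, a 5.91-fold difference (adjusted p = 1.41e-08). Nkg7, a granule protein of cytotoxic and Th1 cells, was lower by -1.58 ± 0.25 (adjusted p = 0.000304). Ifng and Gzmb, effector genes, were not called, with differences of -0.49 ± 0.38 and -0.05 ± 0.46 (adjusted p = 0.605 and 0.983).

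Among the other cytokine programmes the calls were scattered. Il21, which helps B cells, was at 8.39, 7.83 and 8.15 in pretreated arrays, against 9.79, 9.40 and 9.68 in low leucine, lower by -1.50 ± 0.37 (adjusted p = 0.016). Its call ended without pretreated replicate 2 or low leucine replicate 1 or 3 (adjusted p between 0.0602 and 0.0783). Socs3, a brake on cytokine signals that IL-6 and IL-10 induce through STAT3, was at 8.88, 8.73 and 8.76 with pretreated macrophages, against 7.59, 7.54 and 7.56 in low leucine and 8.40 to 8.55 in full medium. It was higher by 1.23 ± 0.20 (adjusted p = 0.000486), one of 3 higher and none lower among 10 genes of IL-10 and IL-6 signalling. Socs1 differed by 0.00 ± 0.17 (adjusted p = 1), and -0.03 with arrays centred on their medians. Gata3, the Th2 factor, differed by 0.39 ± 0.17 and was not called (adjusted p = 0.206). Of 13 Th2 and IL-4 signalling genes, 3 were higher and 1 lower, with a median of -0.12. The Il4 gene was lower by -0.94, and Ccr4, Il4ra and Stat6 were higher by 0.92, 0.69 and 0.44. Every one of these calls ended when 1 or another single array was left out. Of 12 regulatory T cell genes, Ikzf4 (Eos) and Lrrc32 (GARP) were higher by 1.20 ± 0.18 and 1.11 ± 0.20 (adjusted p = 0.000254 and 0.0012), and Tigit was the 1 lower member. Mcl1, a survival factor of the BCL2 family, was higher by 0.78 ± 0.11 (adjusted p = 0.000105), the only called member of 11. Ccl4, a chemokine of activated T cells and macrophages, was at 9.55, 9.64 and 9.16 in pretreated arrays, against 8.35, 7.82 and 8.47 in low leucine, higher by 1.23 ± 0.20 (adjusted p = 0.000461).

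Interferon-induced genes were higher in part. Of 19 type I interferon response genes, 6 were higher and 1 lower, with a median of 0.35. Rtp4, a receptor transporter induced by interferon, was at 8.04, 8.39 and 7.66 with pretreated macrophages, against 6.07, 5.35 and 5.92 in low leucine and 6.71 to 7.13 in full medium. Pretreated arrays were above all of these, by 2.25 ± 0.20 over low leucine (adjusted p = 4.72e-07). Irf7, which amplifies interferon production, was higher by 1.25 ± 0.19 and Ifit1, which binds foreign RNA, by 1.14 ± 0.16 (adjusted p = 0.000209 and 0.000138). Rsad2, Oasl1, Oas3 and Mx2 of the same list were not called, with differences of 0.15, 0.04, 0.04 and 0.35. The higher count was 3 without pretreated replicate 2. Ifit1bl1, outside the list, was among the 12 largest rises, at 6.93, 7.03 and 6.85 in pretreated arrays, against 3.41, 4.01 and 3.82 in low leucine. It was higher by 3.19 ± 0.28 (adjusted p = 3.25e-07), with full medium at 5.61 to 7.0.

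Ifi209 and Ifi208, of the interferon-induced DNA-binding p200 proteins, were among the 12 largest rises. Ifi209 was at 7.80, 8.32 and 7.67 in pretreated arrays, against 5.87, 5.44 and 5.01 in low leucine. Ifi208 was at 7.85, 8.39 and 8.01 in pretreated arrays, against 5.57, 5.83 and 6.19 in low leucine. Neither overlapped, with differences of 2.49 ± 0.31 and 2.22 ± 0.27 (adjusted p = 2.29e-05 and 1.42e-05). Mndal, chosen after its values were seen, was higher by 1.96 ± 0.18 (adjusted p = 4.72e-07). These genes are near-identical neighbours, so their probe sets may share signal. Of 10 guanylate-binding proteins, GTPases that attack vacuoles of pathogens, 4 were higher and none lower. Gbp9 was at 8.42, 8.50 and 8.29 with pretreated macrophages, against 7.34, 7.10 and 7.22 in low leucine, higher by 1.18 ± 0.18 (adjusted p = 0.000189), and Gbp4 and Gbp7 by 1.03 ± 0.21 and 0.97 ± 0.19. Gbp11, chosen after its values were seen, was higher by 2.15 ± 0.24 (adjusted p = 6.97e-06).

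Kcnma1, the pore of a large-conductance potassium channel, had the second largest difference among called genes with a regular symbol. It was at 10.68, 10.54 and 8.63 with pretreated macrophages, against 5.54, 5.50 and 5.56 in low leucine and 11.01, 11.36 and 9.44 in full medium. All other arrays in low media, with or without antigen, were at 5.43 to 6.20. Kcnma1 was higher by 4.42 ± 0.41, or 21.4-fold (adjusted p = 5e-07). It led the 51 of 22180 genes whose 6 pretreated and full-medium arrays lay above all 17 low-medium arrays. Of the 51, 32 were called. For Kcnma1 the gap between the nearest arrays was 2.43. Mt1 and Mt2, the metallothioneins, came next with gaps of 0.85 and 0.80, then Arg1 with 0.63. Ccl22, Eomes, Bnip3, Gbp7, Rtp4 and Lrrc32, described above, were also among the 51. Only 6 genes had the reverse order, Lin7a, Grhl2, Ceacam13, B4galnt2, Olfr761 and Ank1, none of them called. Both rules already keep pretreated and low leucine arrays from overlapping. Over all genes, 4937 had no such overlap in either direction, and 1290 of those were called. The 6 high arrays are also the 6 with submitter numbers of 33 or more, so medium and number range cannot be told apart for these genes.

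Some genes stood out by higher levels in low leucine than in pretreated arrays. Their levels without antigen are not compared here. Phactr2, a regulator of protein phosphatase 1 and actin, was at 5.60, 5.78 and 5.93 in pretreated arrays, against 8.14, 7.55 and 8.00 in low leucine and 6.18, 7.0 and 6.90 in full medium. It was lower with pretreated macrophages by -2.13 ± 0.20 (adjusted p = 6.12e-07). Ajuba, a scaffold protein of cell junctions and Hippo signalling, was at 5.48, 4.99 and 5.17 in pretreated arrays, against 7.98, 6.84 and 7.18 in low leucine and 4.97 to 5.4 in full medium, lower by -2.12 ± 0.25 (adjusted p = 1.16e-05). In low arginine Ajuba averaged 6.49 ± 0.62 and in low lysine 5.68 ± 0.09 (SD, n = 3 each). The next 3 were chosen after their values were seen. Sema4f, a semaphorin, was at 5.36, 5.50 and 5.47 in pretreated arrays, against 7.48, 6.67 and 7.32 in low leucine, lower by -1.71 ± 0.16 (adjusted p = 7.21e-07). Rgs16, which ends signals of chemokine receptors, was at 8.75, 8.67 and 8.73 in pretreated arrays, against 10.56, 10.00 and 10.21 in low leucine, lower by -1.54 ± 0.17, and Fam171b by -1.69 ± 0.26 (adjusted p = 6.97e-06 and 0.000321). For Rgs16 the low arginine arrays averaged 8.16 and the low lysine arrays 8.89.

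Counting over all 15 arrays with antigen, the 3 pretreated arrays lay above all 12 others for 418 of 22180 genes and below them for 184. The 3 low leucine arrays did so for 265 and 120 genes. Full-medium arrays stood apart most often, for 797 and 338 genes. The counts were 205 and 124 for low arginine and 200 and 249 for low lysine. The levels of full medium placed the called genes as follows. Of the 544 genes higher with pretreated macrophages, the full-medium mean was between the 2 groups for 411, above both for 40 and below both for 93. Of the 770 lower genes it was between them for 400, below both for 51 and above both for 319. Over all genes it was above both for 7387 of 22180, between for 7044 and below both for 7749. For 27 of the 30 mitosis genes and all 16 cholesterol synthesis genes the full-medium mean was above both groups, whereas for naive and homing genes it was between them for 10 of 17 and below both for 6.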

How the data were processed

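The log2 values are the authors' deposited RMA values for the Mouse Gene 2.0 ST array, made with Affymetrix Expression Console 1.1 per the submitters' processing notes. They come from 100 ng of RNA, per the labels' protocols. The log2 values of the 72 h arrays were deposited by the authors in the same way on another platform. Of 41345 probe sets, 23521 had 1 gene symbol, 1814 several and 16010 none. Each of 22180 genes was taken from its probe set with the highest mean over 23 arrays. A linear model over 8 groups and 23 arrays was fitted in limma 3.58.1 (R 4.3.3) with an intensity trend, the contrast was pretreated minus low leucine, and p-values were adjusted by Benjamini-Hochberg over all genes. Intervals (95%) come from the same fit. The fit was tested on simulated data. The number of arrays limits the precision.

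Named genes were the 12 largest called rises and 12 largest called falls without overlap between groups, up to 5 called members of each of 48 lists, and a fixed set. The genes and lists were chosen with earlier results of these data known. Sequences came from RefSeq (GRCm38.p6). Alternatives were other normalizations, filters, array subsets, probe-set rules, a replicate block and leaving out each array.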

Additional observations from a re-analysis of the deposited data

How the results depend on the processing

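The counts of called genes depended most on single arrays: leaving out each of the 6 in turn gave 689 to 1428 called genes, 341 to 500 higher and 320 to 928 lower, against 1314, 544 and 770. The total was 809 and 756 without pretreated replicates 1 and 2, and 793, 739 and 689 without low leucine replicates 1, 2 and 3. Of 143 named genes that were called, 96 (without pretreated replicate 2) to 131 (without pretreated replicate 3) were still called, and none changed sign under any alternative. Quantile normalization gave 1170 calls, centring on array medians 1069, the 6 arrays alone 1086, the 15 antigen arrays 1428, a robust fit with array weights 1780 and the filter on the lowest 40% of genes 1598. Same-numbered arrays of the 2 groups had correlations of deviations of -0.158, -0.301 and 0.305 over 5000 genes. Only replicate 3 was above 0, so the numbers of the titles do not pair the arrays throughout. With a replicate block 1568 genes were called over 23 arrays and 915 over the 6 alone, and not every array correlated best with its own number. In the order of the submitters' numbers, pretreated replicates 2, 1 and 3 (34, 36 and 40) stand beside low leucine replicates 1, 2 and 3 (5, 11 and 17), with correlations of 0.406, 0.285 and 0.305, and the other 6 pairs were below 0. The labels do not say that this order marks shared sets. A block by this order, chosen after seeing the data, gave 1399 called genes over 23 arrays and 1527 over the 6 alone, and 141 and 134 of the 143 named genes were still called. Over 23 arrays Cxcl10 and Ppm1k lost their calls (adjusted p = 0.0503 and 0.0547). Signs turned only for genes that were never called: after quantile normalization Slc3a2 (0.0351), Lars (0.0405), Hk2 (0.0282), Gzmb (0.0396) and Cd69 (0.0402), with array weights Fads2 (0.0480), and after centring Socs1 (-0.0264). With single arrays left out the ranges were -0.3939 to 0.0272 for Sesn2, -0.2394 to 0.2031 for Fads2, -0.2929 to 0.0718 for Hk2, -0.5071 to 0.2153 for Gzmb, -0.1743 to 0.0420 for Cd69 and -0.1562 to 0.2486 for Socs1. The cause was not tested.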

Other observations

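At 72 h the same macrophage pretreatment was measured on another array design, without a low leucine group, so the values stand alone. Arg1 was at 5.48, 5.99 and 6.32 with pretreated macrophages, 3.29, 4.44 and 3.60 in full medium with antigen and 6.32, 9.59 and 9.38 in full medium without antigen. Kcnma1 was at 3.26, 3.41 and 3.37 with pretreated macrophages and 3.12 to 3.36 in full medium with antigen, below the array medians of 3.87 to 4.04, so no signal of this gene is read from them. S1pr1 was at 8.82, 6.34 and 7.61 with pretreated macrophages, against 5.52, 5.4 and 5.32 in full medium. Chac1 was at 9.18, 9.23 and 9.35 with pretreated macrophages, against 7.58, 6.96 and 6.88 in full medium.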
